A study of Mus musculus with 15 samples.

Results

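The comparison described here set mouse mammary epithelial organoids cultured beside beads soaked in the growth factor FGF10 against organoids cultured beside beads soaked in bovine serum albumin (BSA), both at 36 h. It drew on 6 of the 15 sequenced libraries, namely FGF10 replicates 1, 3 and 4 and BSA replicates 1, 2 and 3, chosen by their treatment labels. Of the 54456 genes counted, the 18140 with enough fragments entered the test. Organoids of both arms were wild type, came from mammary gland epithelium and grew in DMEM/F12 medium with ITS, a supplement of insulin, transferrin and selenium, so BSA beads are the control for bead and medium together. The other 9 libraries (organoids at 0 h, and both bead types at 72 h) served to estimate the spread and as a second measurement. The titles of the 72 h FGF10 libraries read FGF0, and the treatment label, FGF10, was followed. Nothing in the labels says whether the replicates came from separate cultures or animals, so p-values measure only the spread between these libraries.

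FGF10 is a secreted ligand that binds the epithelial IIIb form of the receptor FGFR2 and passes its signal mainly through RAS, ERK and PI3K. In the embryonic mammary gland and other branching organs it is made by the mesenchyme and received by the epithelium, and a bead soaked in it gives epithelial organoids a local source towards which they can move.

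Libraries of the FGF10 arm held 15386578 to 17408522 assigned fragments and those of the BSA arm 15581146 to 18732149. Levels are given as CPM (counts divided by the normalized library size and brought to a common total), and pairs of libraries within an arm correlated at 0.962 to 0.978 across genes. Pairs across the arms correlated at 0.950 to 0.973, so the ranges overlap. BSA replicate 1 correlated at 0.972 with FGF10 replicate 1, against 0.963 and 0.971 with BSA replicates 2 and 3. The labelled epithelial origin was checked against markers: 12 luminal genes summed to 26038 to 32665 CPM with FGF10 and 21254 to 27303 with BSA, and 12 basal genes to 12133 to 15036 and 8705 to 9566. Markers of other cells were far lower. The sum of 20 endothelial markers was 27.4 to 52.6 against 38.4 to 138 CPM, of 18 fibroblast markers 195 to 263 against 263 to 550.1, and of 12 adipocyte markers 16.6 to 24.8 against 36.4 to 87.3. Sums of 20 leukocyte markers overlapped, at 317 to 608 with FGF10 and 374 to 717 with BSA. The adipocyte gene Car3 was at 0 in all libraries of both arms, and no endothelial marker passed the test. Of the 20 endothelial markers 1 was above 0 in its log2 difference, and their median was -1.68. Sums of 10 pericyte and vascular muscle markers did not overlap, at 104 to 107 CPM with FGF10 and 113 to 122 with BSA. The part of these cells in the results was not tested. Fewer cells of a type and less RNA per cell cannot be told apart in bulk RNA.

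With FGF10, 173 genes were higher and 252 lower at an adjusted p under 0.05 in the edgeR quasi-likelihood test, together 2.34 percent of the genes tested (0.954 percent higher and 1.39 percent lower). The rises were modest and the falls wider. Among higher genes 88 reached 2-fold, 18 reached 4-fold and 4 reached 8-fold, with a median fold of 2.01. Among lower genes these counts were 155, 62 and 29, and the median fold was 2.43. Only 7 rises and 19 falls were under 1.5-fold. Differences are given as log2 of FGF10 over BSA, each ± its standard error. The median difference of all tested genes was 0.00 on the log2 scale.

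The rises involved the more abundant RNAs. Their median level over the 6 libraries was 33.2 CPM, against 14.7 for the falls and 11.9 for all tested genes. Together the higher genes took 1.91 to 2.18 percent of all fragments with FGF10 and 1.01 to 1.07 percent with BSA. The lower genes took 0.561 to 0.678 percent with FGF10 and 1.19 to 1.64 percent with BSA. These shares describe the calls, which chose the genes. Protein coding genes made up 155 of the rises and 228 of the falls. The share called grew with level, from 0.869 percent of genes under 1 CPM to 2.98 percent of genes over 100 CPM. The median standard error of the log2 difference was 0.616 in the first class and 0.176 in the second, so changes in rare RNAs were often not detectable at this depth.

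**Figure D1:**
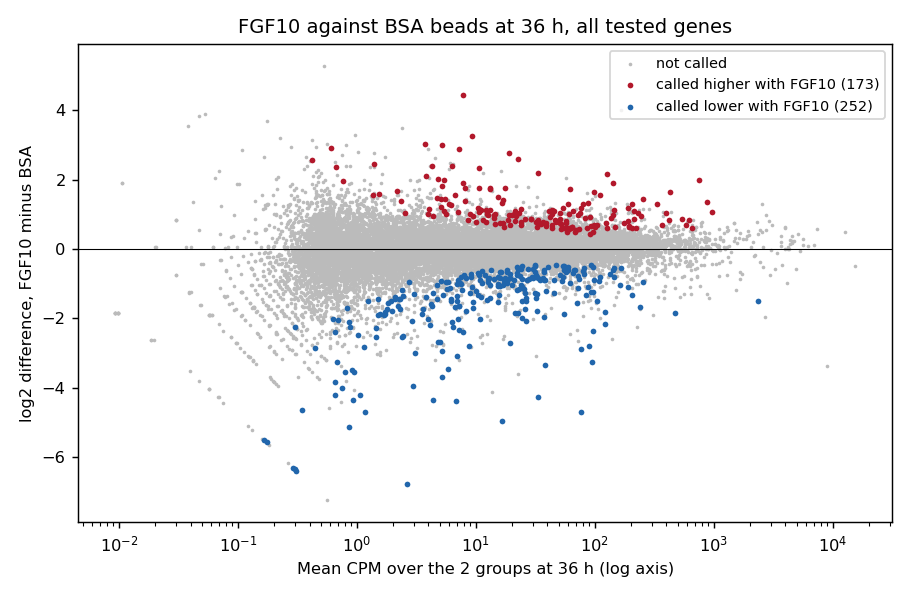
Each point is 1 of the 18140 tested genes, with the mean level at 36 h in CPM on a logarithmic horizontal axis and the log2 difference, FGF10 minus BSA, on the vertical axis. The 173 genes called higher lie mostly at middle and high levels, while the 252 called lower reach further from 0 and include more RNAs of low level.

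The 3 libraries of one arm lay wholly outside those of the other for all 173 genes called higher and for 249 of the 252 called lower, the exceptions being Acot1, Mllt3 and Pcca. Among all tested genes 9.88 percent were separated in this way upwards and 9.53 percent downwards. Separate libraries were also a condition of most naming, so the gaps given below gene by gene follow from the choice of genes. Among the lower genes, BSA replicate 1 was the BSA library nearest to the FGF10 arm for 157 of 252 genes (62.3 percent), against 37 percent over all tested genes. FGF10 replicate 4 had 1.11 percent of its fragments on mitochondrial genes, against 3.60 and 3.97 percent in the other FGF10 libraries and 2.02 to 3.43 percent with BSA. Without that library 572 genes were called (259 higher and 313 lower), and 282 of the 425 calls were among them. The number of calls leaned on single libraries. It was 425 with all of them and dropped to 127 when BSA replicate 3 was omitted, to 199 for BSA replicate 2, to 203 for FGF10 replicate 1 and to 278 for the 72 h BSA library 2_1. Omitting 0 h replicate 1 raised it to 852. With BSA replicate 1 omitted the falls numbered 408, and with the 72 h BSA library 2_2 omitted the rises numbered 114. A fit of only the 6 libraries compared, with fewer degrees of freedom, called 78. Of the called genes, 41 rises and 62 falls kept their call whichever of the 6 libraries compared was left out. Where genes described below lost their calls, the end of the paragraph names them, the libraries whose omission ended 1 or more of those calls and the largest adjusted p. Losses in the fit of only the 6 libraries compared are not listed there, though 179 of 231 named genes lost their call in it.

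The calls were spread over gene classes. Of 77 lists of related genes, grouped in 11 roles, 67 held at least 1 called gene, and 28 of those held calls in both directions. Counts by role, and by list below, are read against 0.954 percent called higher and 1.39 percent called lower over all tested genes. No difference between roles or lists was tested. The lists cover 25 percent of tested genes, 46.2 percent of the rises and 40.9 percent of the falls. They were chosen with earlier results of these data known. An excess of calls in the lists, here and below, may therefore partly follow from that choice. Among genes of no list, 0.683 percent were called higher and 1.09 percent lower. Rises outnumbered falls among cytoskeleton and traffic genes, 14 to 4 of 593 (2.36 and 0.675 percent), and among adhesion, matrix and guidance genes, 18 to 9 of 352 (5.11 and 2.56 percent). Falls outnumbered rises among metabolic enzymes, 28 to 7 of 574 (4.88 and 1.22 percent), and among transporters and channels, 17 to 4 of 521 (3.26 and 0.768 percent). Transcription factors held 5 rises and 7 falls among 721, and cell cycle and RNA genes 5 and 1 among 419. No member passed the test among 171 RNA binding and splicing proteins, 48 homeobox factors, 31 nuclear receptors or 37 factors of the NF-kB, STAT, IRF and SMAD families, against 2.34 percent called over all tested genes. For the lists of 31, 37 and 48 genes a count of 0 is near that background.

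**Figure D2:**
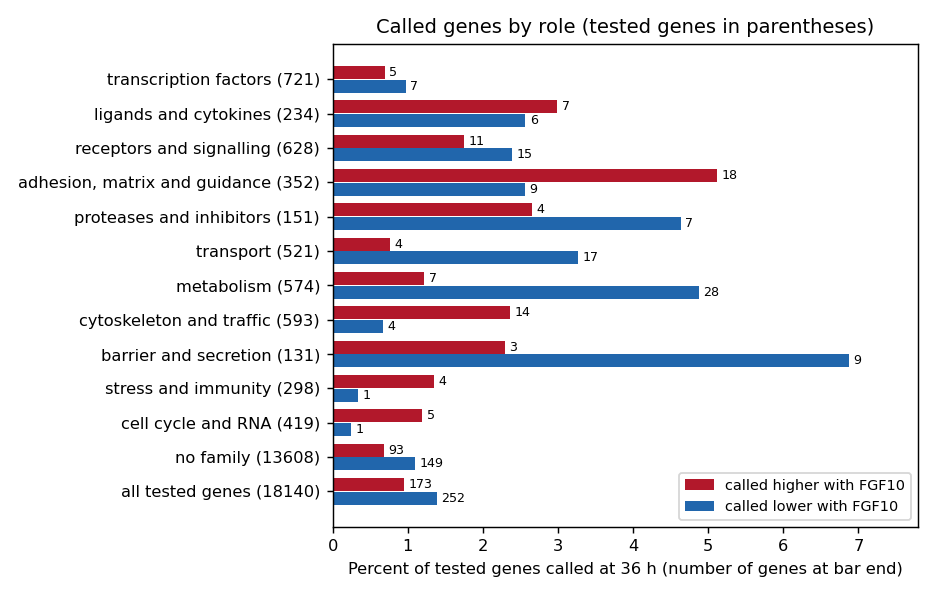
Horizontal bars give, for each of the 11 roles, for genes of no list and for all tested genes, the percent of tested genes called higher (red) and lower (blue) with FGF10 at 36 h, with the number of genes at the bar end. Among the red bars that of adhesion, matrix and guidance genes is the longest at 5.11 percent, and among the blue bars that of barrier and secretion genes at 6.87 percent.

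Among secreted signals and their inhibitors, Fst encodes follistatin, which binds and blocks activins. It was at 118, 127 and 207 CPM with FGF10 and 44.7, 45.6 and 53.5 with BSA. Every FGF10 library exceeded every BSA library, and Fst rose by 1.65±0.21 (adjusted p = 0.00142). Of 43 TGF-beta and BMP pathway genes, the other calls were a rise of the procollagen protease Bmp1 (0.64±0.14) and a fall of the ligand Tgfb3 (-0.61±0.15). That list had 6.98 percent called, against 2.34 percent of all tested genes. Among FGF ligands the calls were Fgf13, which rose by 1.77±0.37, and Fgf11, which fell by 1.28±0.30. Both belong to the FGF homologous factors, which stay inside the cell and do not signal through the FGF receptors as FGF10 does. Dkk3, a secreted relative of the WNT inhibitors, rose by 0.97±0.22. Leaving out 1 or more of the 6 libraries ended the calls of Bmp1, Tgfb3, Fgf13, Fgf11 and Dkk3, with adjusted p up to 0.151 for Tgfb3 without BSA replicate 3.

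Lpar3, a receptor for the lipid lysophosphatidic acid, had one of the smallest p-values of the rises. It was measured at 9.47, 8.5 and 7.97 CPM with FGF10 and 2.02, 2.41 and 2.08 with BSA. The lowest FGF10 library lay above the highest BSA library, a 3.97-fold rise (log2 difference 1.99±0.24, adjusted p = 0.00126). Il18r1, a chain of the interleukin 18 receptor, was at 21.7, 30.6 and 21 CPM with FGF10 and 9.4, 7.96 and 10.2 with BSA. It too was separated between the arms and rose by 1.41±0.21 (adjusted p = 0.00423). Of 127 seven-pass receptors, 2 rose and 5 fell, against 0.954 and 1.39 percent of all tested genes, and the balance of the directions was not tested. The other rise was Adgrg3, an adhesion receptor (1.48±0.31). Among the falls were the muscarinic receptor Chrm1 (-1.45±0.32), the oxytocin receptor Oxtr (-0.98±0.23), by which basal cells contract, and Vipr1, a receptor for vasoactive intestinal peptide (-0.62±0.15). Mas1, a receptor of the angiotensin system outside that list, was at 2.16, 2.19 and 2.78 CPM with FGF10 and 5.95, 11.7 and 13.1 with BSA and fell by 2.11±0.37. Oxtr is also on the list of basal markers, whose sum was higher with FGF10. The growth hormone receptor Ghr was at 13.2, 18.3 and 14.3 CPM with FGF10 and 22.9, 46.6 and 41.3 with BSA, with no overlap, and fell by 1.27±0.22 (adjusted p = 0.00949). The calls of Adgrg3, Chrm1, Oxtr and Vipr1 did not hold without 1 or more of the 6 libraries, with adjusted p up to 0.122 for Oxtr without BSA replicate 3.

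Inside the cell, Dusp7, a phosphatase that acts on ERK, rose by 0.93±0.15 (adjusted p = 0.00562). Its levels were 53.2, 59.9 and 51.8 CPM with FGF10 and 25.5, 31.2 and 30.1 with BSA, so the whole FGF10 arm lay above the BSA arm. Sh2d5, a protein with an SH2 domain, was at 17.3, 19.2 and 24.3 CPM with FGF10 and 6.07, 5.27 and 6.9 with BSA. It was 3.33 times as high with FGF10 (log2 difference 1.74±0.23, adjusted p = 0.00199). Pak6, a kinase that binds RAC and CDC42, had values of 6.01, 7.62 and 7.72 CPM with FGF10 and 2.62, 3.53 and 3.09 with BSA, all higher with FGF10, and rose by 1.21±0.21 (adjusted p = 0.00884). In the opposite direction, Arhgef6, an exchange factor for those GTPases, was at 10.39, 17.3 and 11.1 CPM with FGF10 and 40.5, 35.9 and 32.6 with BSA. It fell by 1.49±0.22 (adjusted p = 0.00423). The G protein subunit Gng7 (-0.95±0.17), the G protein regulator Rgs11 (-1.95±0.34) and the small GTPase Diras2 (-1.86±0.30) fell as well. The kinase Prkg2, activated by cyclic GMP, rose by 2.59±0.36. All 8 of these genes kept their calls whichever of the 6 libraries was left out.

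Among 721 transcription factors, 0.693 percent rose and 0.971 percent fell, against 0.954 and 1.39 percent of all tested genes. Id4, which binds basic helix-loop-helix factors and keeps them off DNA, was at 185, 153 and 282 CPM with FGF10 and 21.1, 66.5 and 49.96 with BSA. It rose by 2.17±0.35 (adjusted p = 0.00776), with the arms apart. Klf5, a factor of proliferating epithelia, rose by 0.48±0.11, the SOX factor Sox15 by 2.39±0.46 and the ETS factor Etv4, known to respond to FGF signalling, by 1.55±0.32. Foxi1, the factor that specifies ion-transporting cells of kidney and airway, was at 51.1, 58.2 and 55.4 CPM with FGF10 and 209, 111 and 146 with BSA. Its arms did not overlap, and it fell by 1.50±0.23 (adjusted p = 0.00472). Batf, a basic leucine zipper factor of the AP-1 class, fell by 1.10±0.17. Ets2 (-1.14±0.24) and Tfeb, which drives genes of lysosomes and autophagy (-0.83±0.19), fell too. Klf5, Sox15, Etv4, Ets2 and Tfeb lost their calls without 1 or more of the 6 libraries, with adjusted p up to 0.153 for Tfeb without BSA replicate 3.

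Several receptors for the matrix rose. Of 24 integrin genes, Itga3, Itga2 and Itgb4 rose and Itgb3 fell. The share called was 16.7 percent, against 2.34 percent of all tested genes. Itga3, the alpha chain of a laminin receptor, was at 105, 106 and 127 CPM with FGF10 and 45.1, 43.6 and 50.1 with BSA. The arms did not overlap, and Itga3 rose by 1.28±0.16 (adjusted p = 0.00141). Itga2, whose product pairs with beta 1 to bind collagen, was at 26.5, 31.5 and 25.2 CPM with FGF10 and 13.1, 12.3 and 16.2 with BSA and rose by 1.00±0.15 (adjusted p = 0.00423). Itgb4, the beta chain of hemidesmosomes and also a basal marker, rose by 0.59±0.15, and Itgb3 fell by 1.15±0.26. The laminin chain Lama3 rose by 0.77±0.17. Col7a1, the collagen of anchoring fibrils beneath the basement membrane, rose by 1.05±0.23. Leaving out 1 or more of the 6 libraries ended the calls of Itgb4, Itgb3, Lama3 and Col7a1, with adjusted p up to 0.139 for Itgb4 without BSA replicate 2.

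Secreted and surface proteins of the matrix followed. Loxl3, which cross-links collagen and elastin, was at 8.69, 5.76 and 9.81 CPM with FGF10 and 2.91, 1.79 and 2.2 with BSA. Its highest BSA value lay under its lowest FGF10 value, and it rose by 1.81±0.31 (adjusted p = 0.0081). Cthrc1, a secreted protein with collagen repeats, rose by 1.91±0.40. Lgals1, galectin-1, which binds sugar chains of matrix and surface proteins, was at 480.1, 425 and 1062 CPM with FGF10 and 153, 266 and 208 with BSA and rose by 1.65±0.30 (adjusted p = 0.0105). Spp1, the secreted matrix protein osteopontin, was at 924, 1143 and 1728 CPM with FGF10 and 494, 488 and 498 with BSA. It was among the most abundant of the called RNAs per kilobase of exon and rose by 1.36±0.28 (adjusted p = 0.0231). Adam12, a membrane metalloproteinase, rose by 1.17±0.26, and Mmp2, a gelatinase, fell by 1.39±0.30. Flrt3, a membrane protein that binds FGF receptors and guidance receptors, was at 18, 19.3 and 17 CPM with FGF10 and 8.8, 7.45 and 8.45 with BSA and rose by 1.13±0.18 (adjusted p = 0.00562). In contrast, the guidance genes Plxna3 (-0.75±0.13), Sema4a (-0.87±0.15) and Plxdc2 (-0.84±0.19) fell, the 3 calls among 28 semaphorin, plexin and neuropilin genes, and so did the ephrin Efna3 (-1.64±0.28), which overlaps the called gene Gm15998. The calls of Cthrc1, Lgals1, Spp1, Adam12, Mmp2 and Plxdc2 did not hold without 1 or more of the 6 libraries, with adjusted p up to 0.127 for Adam12 without BSA replicate 3.

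Cell junctions and the cell surface gave further rises. Tspan1, a tetraspanin of the plasma membrane, was at 144, 173 and 175 CPM with FGF10 and 49.1, 51.2 and 67.1 with BSA. The arms were well apart and Tspan1 rose 2.94-fold (log2 difference 1.55±0.18, adjusted p = 0.00126). Calls among 55 junction genes included the gap junction gene Gjb6, which rose (1.55±0.35), and the tight junction gene Cldn2, which fell (-1.60±0.37). The list had 7.27 percent called, against 2.34 percent of all tested genes. The desmosomal cadherins Dsg3 (1.33±0.24) and Dsc3 (1.44±0.31) rose too. Anxa3, a membrane-binding annexin, was at 446, 557 and 585 CPM with FGF10 and 199.8, 261 and 317 with BSA and rose by 1.03±0.19 (adjusted p = 0.0129). Gjb6, Cldn2 and Dsc3 lost their calls without 1 or more of the 6 libraries, with adjusted p up to 0.151 for Gjb6 without BSA replicate 3.

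**Figure D3:**
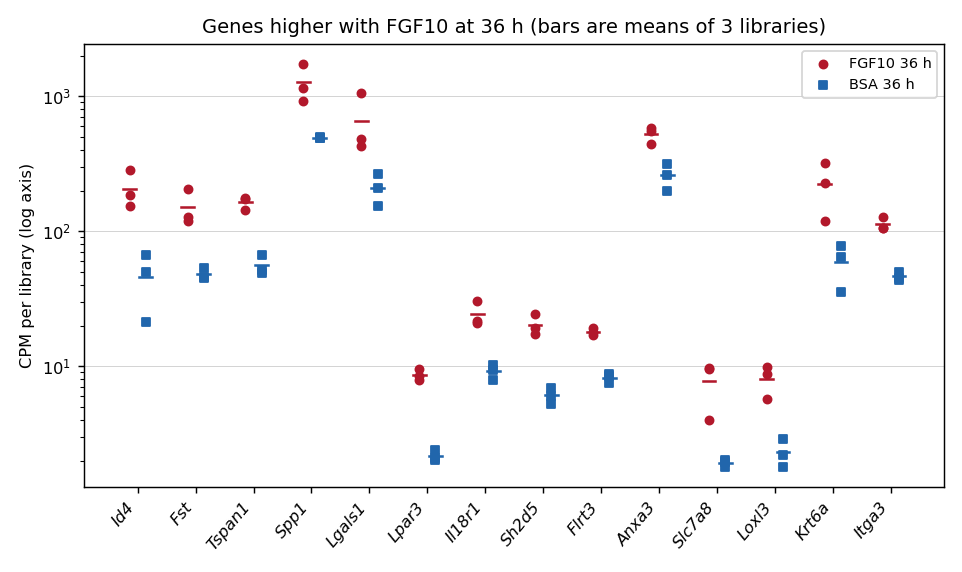
Points give the level in CPM, on a logarithmic axis, in each of the 3 FGF10 libraries (red circles) and the 3 BSA libraries (blue squares) for several of the named genes that rose, and bars mark the mean of each 3. In every gene shown the red points lie above the blue ones, as in Lpar3, with a 3.97-fold rise. Genes called higher all had separate libraries, which most naming also required, so this gap follows from the choice of genes.

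Several actin genes rose, by small steps. Of 132 tested, 9 rose and 1 fell, and the median difference over the list was 0.14. Called members made up 7.58 percent, against 2.34 percent of all tested genes. Tropomyosins wrap actin filaments and set which motors bind them. Tpm1 was at 777, 822 and 755 CPM with FGF10 and 419, 556 and 571 with BSA and rose by 0.61±0.14, and Tpm2 and Tpm4 rose by 0.69±0.17 and 0.83±0.15. The actin cross-linker Flna (0.69±0.15), the smooth muscle actin Actg2 (1.17±0.24) and the adaptor Pdlim7 (0.64±0.13) rose, while the actin monomer binder Pfn2 fell (-0.70±0.14). Among microtubule genes Ckap4, which anchors the endoplasmic reticulum to microtubules, was at 42.9, 40.7 and 48.3 CPM with FGF10 and 26.6, 25.2 and 27.8 with BSA. All 3 FGF10 libraries were higher, and Ckap4 rose by 0.73±0.12 (adjusted p = 0.00716). Rtn1, a reticulon that shapes the same membranes, was at 19.5, 15.7 and 25.7 CPM with FGF10 and 8.27, 4.15 and 5.77 with BSA and rose by 1.75±0.26 (adjusted p = 0.00423). Krt6a, a keratin of activated epithelium with close copies, rose by 1.91±0.44. Nes, the intermediate filament nestin, rose by 1.26±0.28, and Dpysl2, which binds tubulin, by 1.30±0.27. Leaving out 1 or more of the 6 libraries ended the calls of Tpm1, Tpm2, Tpm4, Flna, Actg2, Pdlim7, Pfn2, Krt6a, Nes and Dpysl2, with adjusted p up to 0.154 for Tpm2 without BSA replicate 3.

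Rises among enzymes and carriers were fewer than falls. Acat2, which makes acetoacetyl-CoA, a precursor of sterols, rose by 1.31±0.26. The fatty acid enzymes Acsl4, which activates arachidonic acid, and Elovl6, which lengthens palmitate, rose by 1.09±0.19 and 1.10±0.20. Fah, the last enzyme of tyrosine breakdown, was at 82.8, 58.4 and 101 CPM with FGF10 and 42, 39.4 and 39.3 with BSA. Again the arms did not overlap, and Fah rose by 1.00±0.16 (adjusted p = 0.00562). Slc7a8, a carrier of neutral amino acids, was at 9.6, 9.7 and 3.99 CPM with FGF10 and 2.02, 1.79 and 1.96 with BSA and rose by 2.01±0.34 (adjusted p = 0.00716). It was one of 3 rises, with Slc4a7, a bicarbonate carrier (0.94±0.17), and Slc25a24, a mitochondrial nucleotide carrier (0.88±0.16), against 7 falls among 254 solute carriers. Of those carriers 3.94 percent were called, against 2.34 percent of all tested genes. Nt5e, the surface enzyme CD73 that makes adenosine, rose by 0.97±0.22, whereas Entpd2, an earlier step of that chain, fell by 1.00±0.19. The calls of Acat2, Acsl4, Elovl6, Slc4a7, Slc25a24, Nt5e and Entpd2 did not hold without 1 or more of FGF10 replicates 1 and 3 and BSA replicates 2 and 3, with adjusted p up to 0.103 for Nt5e without BSA replicate 2.

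A few abundant RNAs of general cell function also rose. By CPM per kilobase of exon they include Erh (1.09±0.19), the nuclear transport factor Ranbp1 (1.04±0.24) and Sfn, the 14-3-3 sigma protein of epithelia (1.08±0.23). Hmga1, an architectural chromatin protein of growing cells, rose by 0.79±0.18, and its near copy Hmga1b by 0.83±0.20. Fragments that match both copies were not counted, so the split between the pair is uncertain. Of 95 cell cycle genes, the calls were Plk2 (1.43±0.25) and the phosphatase Cdc14a (0.95±0.20), at a list median of 0.28. With 2.11 percent called, that list is near the 2.34 percent of all tested genes. Erh, Ranbp1, Sfn, Hmga1, Hmga1b and Cdc14a lost their calls without 1 or more of the 6 libraries, with adjusted p up to 0.155 for Ranbp1 without BSA replicate 3.

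The falls included the deepest changes of the comparison. Acsl6, a synthetase that activates long fatty acids, had 2 fragments over the 3 FGF10 libraries and 270 over the BSA libraries. Per library it was at 0.0653, 0.0548 and 0 CPM with FGF10 and 3.87, 6.05 and 5.77 with BSA, a ratio of 129 with a counting interval of 35.5 to 1074 (95% confidence) and an adjusted p of 0.000141. The BSA level was not there at the start, as Acsl6 was at 0.106±0.11 CPM (mean ± SD, n = 3) at 0 h. Several RNAs had no fragment at all in the FGF10 arm. Lep, the adipocyte hormone leptin, had 30 fragments with BSA, at least 9.59-fold above a limit of 3 counts over the FGF10 arm, and Clic5, a chloride channel protein, had 18 (at least 5.75-fold). Lep was the 1 adipocyte marker called among 9 tested, and the summed levels of those markers are given above. Acsl6 kept its call whichever of the 6 libraries was left out. Leaving out 1 or more of FGF10 replicates 1, 3 and 4 and BSA replicates 2 and 3 ended the calls of Lep and Clic5, with adjusted p up to 0.0889 for Clic5 without BSA replicate 3. These limits cover counting error only.

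Late barrier genes were among the deep falls. Of 23 cornified envelope genes, 5 fell and 1 rose, so that 26.1 percent were called against 2.34 percent of all tested genes. Lor, loricrin, a main protein of the envelope, was at 0.392, 0.603 and 1.27 CPM with FGF10 and 3.03, 13.7 and 12.4 with BSA. It was higher in each BSA library and fell by 3.68±0.64 (adjusted p = 0.0112). Ivl, involucrin, was at 1.76, 11.7 and 3.29 CPM with FGF10 and 16.8, 207 and 222 with BSA, and the envelope genes Lce1b (-3.25±0.67) and Sbsn (-1.07±0.24) fell. The rise was periplakin, Ppl (0.70±0.17), which ties the envelope to keratin filaments. The calls of Lor, Ivl, Lce1b, Sbsn and Ppl did not hold without 1 or more of the 6 libraries, with adjusted p up to 0.13 for Ppl without BSA replicate 2.

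Promoter letters were read in the 250 bases before the annotated start of genes, from RefSeq on the mouse build GRCm38.p6, for 119 higher genes, 186 lower genes and 11818 tested genes in all. The letters searched, TGANTCA, cover TGACTCA and TGAGTCA, which AP-1 dimers of FOS, JUN and BATF proteins bind and which are known from barrier genes. They also cover TGAATCA, the form in the Serpinb2 stretch below, which differs from both at the centre. Counting every form, TGANTCA stood on either strand in 8.06 percent of lower (15 of 186), 3.36 percent of higher (4 of 119) and 4.68 percent of all promoters. Stretches with this match from 3 genes that fell deeply and 1 that rose, Serpinb2 (2.39±0.52), a serine protease inhibitor, are shown 5′ to 3′ on the gene's own strand with the match in capitals. They serve as examples, chosen after the matches were seen. The forms of the match were not counted apart, so the examples do not show which form goes with rises or falls.
Acsl6: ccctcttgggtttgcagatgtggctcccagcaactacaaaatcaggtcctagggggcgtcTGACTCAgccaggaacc
Lor: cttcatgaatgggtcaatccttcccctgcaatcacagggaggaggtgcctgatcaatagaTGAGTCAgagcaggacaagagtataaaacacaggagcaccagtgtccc
Ivl: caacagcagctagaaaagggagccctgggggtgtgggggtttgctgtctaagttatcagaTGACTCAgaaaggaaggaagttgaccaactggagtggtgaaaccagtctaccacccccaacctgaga
Serpinb2: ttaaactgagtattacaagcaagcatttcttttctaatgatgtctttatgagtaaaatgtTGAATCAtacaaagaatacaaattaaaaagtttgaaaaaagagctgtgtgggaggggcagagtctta
The Acsl6 stretch is chr11:54303747-54303823 on the plus strand, and its match begins 17 bases before the start. That of Lor is chr3:92083143-92083250 on the minus strand, with the match 48 bases before the start. That of Ivl is chr3:92573785-92573911, also minus, with 116 bases. That of Serpinb2 is chr1:107511269-107511395 on the plus strand, with 94 bases. A match is a description of letters and not a measured binding site. In all 10 motifs were searched in the same way. The ETS core CCGGAAGT was in 2.15 percent of lower, 1.68 percent of higher and 5.5 percent of all promoters. The TEAD motif GGAATG was in 15.1 percent of lower, 11.8 percent of higher and 10.9 percent of all promoters. The E-box CACGTG was in 9.68 percent of lower, 4.2 percent of higher and 8.19 percent of all promoters. The GC box GGGCGG was in 50.5 percent of lower, 58.8 percent of higher and 56.6 percent of all promoters. The NFY box CCAAT was in 37.6 percent of lower, 41.2 percent of higher and 36.3 percent of all promoters. The STAT motif TTCNNNGAA, the NF-kB motif, the CRE TGACGTCA and the SRE-like TCACNCCAC were each in 0.538 to 5.91 percent of any of these 3 promoter sets. These shares were not tested against each other. Serpinb2 lost its call without any 1 of FGF10 replicates 1 and 3 and BSA replicates 1 and 3 (adjusted p up to 0.147).

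Of 574 metabolic enzymes, 4.88 percent were called lower, against 1.39 percent of all tested genes. Enzymes of glutathione and redox handling gave 5 falls and no rise of 73 tested. Hmox1, heme oxygenase 1, was at 66, 61.6 and 33.6 CPM with FGF10 and 139.6, 247 and 179 with BSA. The arms did not meet, and Hmox1 fell by 1.81±0.29 (adjusted p = 0.00716). Gsta3, a glutathione transferase with close copies, fell by 1.41±0.28, and Txnip, which inhibits thioredoxin, fell by 1.23±0.23. Txnip overlaps the called gene Gm15441 on the other strand, and the counts are unstranded, so its count is uncertain. Enzymes of prostaglandins and related lipids gave 5 falls and no rise of 60. Hpgd, which inactivates prostaglandins, was at 3.33, 1.43 and 2.02 CPM with FGF10 and 16.9, 6.22 and 8.98 with BSA and fell by 2.25±0.42 (adjusted p = 0.0147). Ptgds, which makes prostaglandin D2, fell by 2.49±0.38, and the epoxide hydrolase Ephx2 fell by 1.04±0.22. Acaa1b, a thiolase of peroxisomal fatty acid oxidation, was at 1.57, 1.37 and 1.77 CPM with FGF10 and 6.6, 5.71 and 6.78 with BSA. It fell 4.05-fold (log2 difference -2.02±0.26, adjusted p = 0.00184). Pcx, pyruvate carboxylase (-1.29±0.24), and the pyruvate dehydrogenase kinases Pdk1 (-0.94±0.21) and Pdk2 (-0.90±0.16) fell, the 3 calls of 41 in their list. Cyp2s1, a cytochrome P450, fell by 2.41±0.47, and Selenbp1, a selenium-binding protein with a near copy, fell by 2.87±0.54. Ephx2, Pcx, Pdk1, Cyp2s1 and Selenbp1 lost their calls without 1 or more of FGF10 replicates 1 and 4 and BSA replicates 2 and 3, with adjusted p up to 0.101 for Pdk1 without BSA replicate 2.

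Several of the named falls were proteases, lipases or other hydrolases. Of 151 proteases and protease inhibitors, 7 fell and 4 rose, the rises being Adam12, Serpinb2 and the inhibitor genes Timp1 (1.30±0.25) and Wfdc2 (1.99±0.28). These are 4.64 percent called lower and 2.65 percent called higher, against 1.39 and 0.954 percent of all tested genes. Ctsf, the cysteine protease cathepsin F, was at 10.8, 13.9 and 11.8 CPM with FGF10 and 34, 40.1 and 46 with BSA. The 3 FGF10 libraries lay close together under all BSA libraries, and Ctsf fell by 1.72±0.16 (adjusted p = 0.000141). Lipa, the acid lipase that frees cholesterol and fatty acids, was at 40.1, 51.9 and 40.7 CPM with FGF10 and 278, 152 and 169 with BSA and fell by 2.17±0.34 (adjusted p = 0.00666). Smpdl3a, a phosphodiesterase, was at 17.9, 14.3 and 22.5 CPM with FGF10 and 39.1, 44.3 and 49.1 with BSA and fell by 1.28±0.16 (adjusted p = 0.00141). Ctsa, the protective protein of a lysosomal enzyme complex (-0.62±0.12), Neu1, the sialidase in that complex (-0.88±0.22), and Arsa, which removes sulfate from sulfatides (-0.85±0.21), fell. Chosen after their values were seen, Hexa (-1.10±0.19), which cleaves gangliosides, and Gaa (-0.62±0.13), which degrades glycogen, were lower as well. No list of lysosomal genes was fixed, so no count over such genes is given. Leaving out 1 or more of the 6 libraries ended the calls of Adam12, Serpinb2, Timp1, Ctsa, Neu1, Arsa and Gaa, with adjusted p up to 0.195 for Neu1 without BSA replicate 3.

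**Figure D4:**
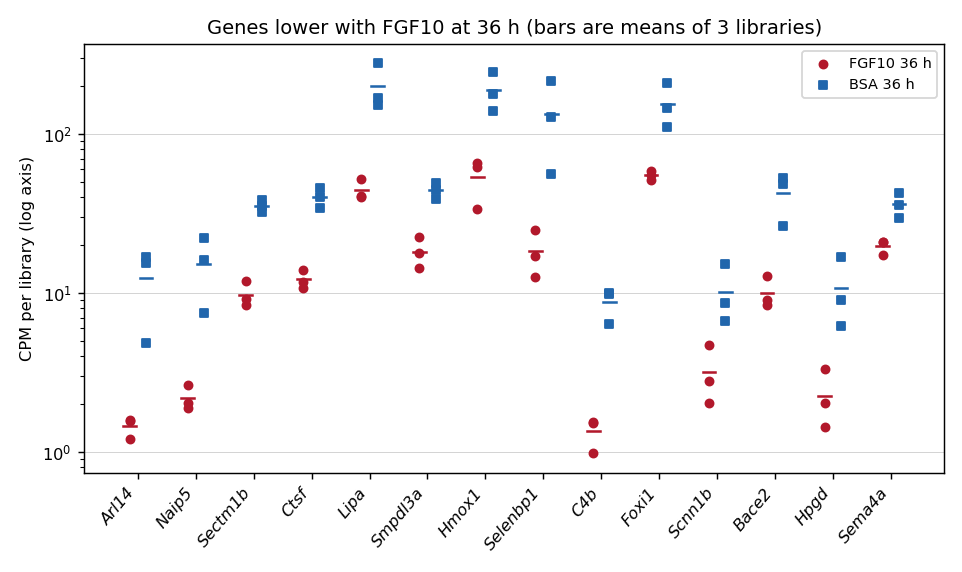
Points give the level in CPM, on a logarithmic axis, in each of the 3 FGF10 libraries (red circles) and the 3 BSA libraries (blue squares) for several of the named genes that fell, and bars mark the mean of each 3. The blue points lie above the red ones in every gene shown, a gap that follows from the choice of genes, as most naming required separate libraries. BSA replicate 1 was the BSA library nearest to the FGF10 arm for 62.3 percent of all genes called lower.

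Of 521 transport genes, 17 fell and 4 rose, so that 3.26 percent were called lower against 1.39 percent of all tested genes. Ion channels gave 5 falls and no rise of 95 sodium, calcium, chloride and TRP channel genes. Scnn1b, a subunit of the epithelial sodium channel, was at 4.7, 2.8 and 2.02 CPM with FGF10 and 15.1, 6.61 and 8.62 with BSA. It was lower in every FGF10 library (log2 difference -1.67±0.32, adjusted p = 0.0163). Clic6, a chloride channel protein, was at 23, 27.4 and 20.4 CPM with FGF10 and 94.9, 78 and 88.7 with BSA and fell by 1.88±0.30 (adjusted p = 0.00705). Atp6v1b1, the proton pump subunit of acid-secreting cells, was at 125, 139 and 83.2 CPM with FGF10 and 439, 280.1 and 380 with BSA. It fell by 1.66±0.28 (adjusted p = 0.00813), as did Atp4a, a proton pump subunit best known from stomach (-3.55±0.68). Slc40a1, the iron exporter ferroportin, fell by 1.20±0.23, and Slc18a1, a vesicle carrier of amines, fell by 1.35±0.22. Tcn2, the secreted carrier of vitamin B12, was at 65.5, 70.8 and 67.7 CPM with FGF10 and 119.8, 126 and 137 with BSA and fell by 0.91±0.12 (adjusted p = 0.00257). The calls of Atp4a and Slc40a1 did not hold without 1 or more of FGF10 replicate 1 and BSA replicates 2 and 3, with adjusted p up to 0.0812 for Slc40a1 without BSA replicate 3.

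Further falls concerned immune and surface genes. Sectm1b, a secreted and membrane protein known to bind T cells, was at 8.36, 11.8 and 9.11 CPM with FGF10 and 32.5, 38.4 and 35.4 with BSA. Its arms were far apart relative to their spread, and it fell by 1.86±0.17 (adjusted p = 0.000141). Naip5, a sensor of bacterial flagellin, was at 1.89, 2.63 and 2.02 CPM with FGF10 and 7.43, 16 and 22.1 with BSA and fell by 2.79±0.33 (adjusted p = 0.00126), though fragments shared with its close copies were left out. C4b, complement component 4, was at 0.98, 1.54 and 1.52 CPM with FGF10 and 6.36, 9.86 and 9.99 with BSA. It fell by 2.69±0.41 (adjusted p = 0.00472) and has near copies in its locus. H2-Ab1, a class II histocompatibility gene and the 1 leukocyte marker called among 15 tested, fell by 1.99±0.41, beside the overlapping leukocyte sums given above. Bace2, a membrane protease, was at 8.36, 12.8 and 8.98 CPM with FGF10 and 26.2, 48.4 and 52.8 with BSA and fell by 2.07±0.32 (adjusted p = 0.00565). Bsg, basigin, a surface glycoprotein that escorts lactate carriers, was the most abundant named fall per kilobase and fell by 1.50±0.32. H2-Ab1 and Bsg lost their calls without 1 or more of FGF10 replicates 1, 3 and 4 and BSA replicates 2 and 3, with adjusted p up to 0.0981 for H2-Ab1 without FGF10 replicate 1.

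Other large falls belong to no list. Arl14, a small GTPase of vesicle traffic, was at 1.57, 1.21 and 1.58 CPM with FGF10 and 4.82, 15.5 and 16.8 with BSA. The arms were separated by a wide gap, and Arl14 fell 8.51-fold (log2 difference -3.09±0.43, adjusted p = 0.00271). Ncald, a neuronal calcium sensor protein, was at 13.7, 13.2 and 17 CPM with FGF10 and 59, 42.9 and 49.7 with BSA and fell by 1.79±0.25 (adjusted p = 0.00291). Rnf225, a RING finger protein, fell by 2.02±0.34, and Fam180a fell by 2.69±0.44. Gsdma, a gasdermin, whose cut form makes pores in membranes, fell by 1.78±0.29. Paqr6, a progestin receptor of the membrane, was at 12.9, 12.2 and 15.9 CPM with FGF10 and 44.3, 31.3 and 40.5 with BSA and fell by 1.50±0.20 (adjusted p = 0.0025). These 6 genes kept their calls whichever of the 6 libraries compared was left out.

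The 72 h libraries gave a second measurement of the same genes with other libraries. Their arms also differed in marker sums. The adipocyte sum was 427 to 434 CPM with BSA and 11.3 to 74.9 with FGF10. The endothelial sum was 162 to 397 and 27.5 to 58.7, and the fibroblast sum 764 to 914 and 275 to 581. In the other direction, the luminal sum was 24203 to 28391 with BSA and 35591 to 41622 with FGF10. The part of cell types in the 72 h differences was not tested. Both times were tested in a single model with a shared spread per gene, so their calls are not independent. At that time 5.99 percent of tested genes were called (3.01 percent higher and 2.98 percent lower). Of the 173 rises at 36 h, 105 (60.7 percent) were called higher again, and of the 252 falls, 124 (49.2 percent) lower again. None was called in the opposite direction. The number called the same way at both times, 229, depended on single libraries. Omitting a 72 h BSA library left 94 (2_1), 83 (2_2) or 96 (replicate 3). Libraries 2_1 and 2_2 share a replicate number and may not be separate cultures, and summing them into 1 gave 92 in place of 229. Omitting a 72 h FGF10 library left 143 (replicate 2), 123 (replicate 3) or 84 (replicate 4). Of the 36 h libraries, BSA replicate 2 left 122, BSA replicate 3 84 and FGF10 replicate 1 120, while omitting replicate 1 of 0 h gave 494. The sign was the same for 97.7 percent of the rises and 96.4 percent of the falls, against 70.8 percent of all tested genes. The median log2 difference at 72 h was 0.81 for the rises and -0.89 for the falls, and at 36 h, which chose the genes, 1.01 and -1.28.

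Single genes show how the later value varied. Lpar3 was higher again at 72 h, by 2.34±0.25 (adjusted p = 0.000593). Naip5 was lower again, by -3.02±0.32 (adjusted p = 0.000593), and Lipa by -1.43±0.33 (adjusted p = 0.0255). Others did not pass at 72 h: Slc7a8 was at 0.42±0.34 (adjusted p = 0.491), Sh2d5 at 0.65±0.23 (adjusted p = 0.1001), Itga2 at 0.20±0.15 (adjusted p = 0.454) and Flrt3 at 0.29±0.18 (adjusted p = 0.351). The change of the FGF10 effect between the times was tested itself, with edgeR calling 0 genes (0.0 percent), DESeq2 18 and limma voom 0. At an unadjusted p under 0.05 edgeR gave 998 genes. By edgeR, none of the named genes is shown to respond at one time only.

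**Figure D5:**
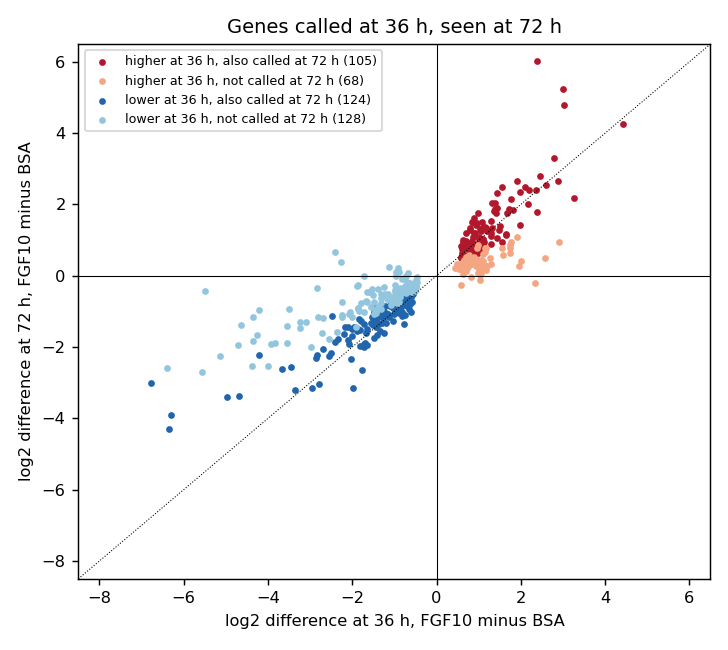
Each point is a gene called at 36 h, with its log2 difference between FGF10 and BSA at 36 h on the horizontal axis and at 72 h on the vertical axis, and the diagonal marks equal values. The genes lie almost wholly in the areas of equal sign, with 169 of 173 rises and 243 of 252 falls there.

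Called genes also lay near each other. Within 200 kb, 71 called genes stood beside another called gene of the same direction, in 7 clusters of rises and 24 clusters of falls. Coordinates here are those of the count table, on GRCm39. Colca2 (chromosome 9, 51181558 to 51190951) rose by 1.38±0.24 (adjusted p = 0.00809) beside Pou2af1 (chromosome 9, 51125008 to 51151380), a B cell coactivator gene that rose by 2.89±0.38, and Layn (chromosome 9, 50965940 to 50988394), a hyaluronan receptor that rose by 1.14±0.26. The largest cluster, of 5 falls on chromosome 17, held Prrt1, C4b, Skiv2l-ps1, Tnxa and Neu1, and C4b, Skiv2l-ps1 and Tnxa have near-identical copies close by, so their counts are uncertain. Plxna3 and Fam3a (-0.89±0.15) fell together on chromosome X with Slc10a3 (-0.51±0.13). No count of clusters in other gene sets was made, so their number is a description. Leaving out 1 or more of FGF10 replicates 1 and 4 and BSA replicates 1, 2 and 3 ended the calls of Layn, Prrt1, Tnxa, Neu1 and Slc10a3. The adjusted p was up to 0.195, for Slc10a3 and for Neu1 without BSA replicate 3.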

How the data were processed

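Poly(A) RNA of 15 libraries (5 groups of 3) was sequenced by the submitters. Per the file headers, the deposited table holds raw counts of fragments over the exons of each gene, made with featureCounts 2.0.1 in paired mode and unstranded, and leaves out fragments with several possible places or genes. Near-identical copies and antisense overlaps are therefore uncertain. The submitters' processing notes list cutadapt 1.9.1, FastQC, HISAT2 2.2.1, DESeq2, HTSeq and the build GRCm39.

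Genes were kept by filterByExpr (minimum count 10, minimum total 15), 18140 of 54456, and libraries scaled by TMM. A single model of the 5 groups was fitted with edgeR 4.0.16 in R 4.3.3 and tested by its robust quasi-likelihood F test (residual degrees of freedom 10, median prior 5.03, biological coefficient of variation 0.234). A call is an adjusted p (Benjamini-Hochberg, over every tested gene) under 0.05. The standard error of a log2 difference is that difference divided by the root of its F. The fit was tested on simulated data, and gene lists were described without a test. Of 100 genes simulated at a log2 difference of 1 in size, the fit recovered 34 percent. Of 100 at a size of 2 it recovered 79 percent, with 5 false calls over all genes. Many changes of 2-fold can thus be missed. The simulated counts were drawn from the fitted spread, with no other difference between groups and no deviating library. The false calls are therefore not an error rate for the real libraries.

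Named genes were called protein coding genes outside a panel of best known genes, with a mean of 5 CPM or more in the arm with more RNA and separate libraries: the 25 largest rises and falls, the 10 smallest p in each direction and the 10 most abundant per kilobase. Added to these were up to 4 called genes per list and direction, and neighbours within 200 kb. Genes outside this rule are named where a count turns on them, after their values were seen, and some genes open to naming are not reported here. The members and lists were chosen with earlier results of these data known. Where an arm had no fragment, 3 counts over the arm stood in for it, and with 1 to 3 fragments the ratio has a 95% interval. Alternatives were the size factors of DESeq2, other filters, a replicate block, summing 2_1 with 2_2 of BSA 72 h, a fit of the 6 libraries alone, limma 3.58.1 voom, DESeq2 1.42.0 and the omission of each library. Gene coordinates are those of the count table (GRCm39), and promoter sequences are from RefSeq on GRCm38.p6.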

Additional observations from a re-analysis of the deposited data

How the results depend on the processing

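Against 425 calls (173 higher, 252 lower), the DESeq2 Wald test gave 1088 (474 and 614), limma voom with sample weights 1460 (695 and 765) and a fit of only the 6 libraries compared 78 (40 and 38). Leaving out 1 library gave 127 to 852 calls, 48 to 424 higher and 79 to 428 lower. Against 229 genes called the same way at both times, the count was 534 by DESeq2, 953 by voom, 92 with BSA 72 h libraries 2_1 and 2_2 summed and 83 to 494 with 1 library left out. DESeq2 size factors, no filter and the stricter filter gave 428, 521 and 424 calls. With the replicate number as a block there were 479 calls, of which 319 were among the 425, and 46 of 237 named genes lost their call. In the fit of 6 libraries 179 of 231 named genes lost theirs. Without BSA 36 h replicate 3, 145 of 237 did, and without BSA 36 h replicate 2, 123 did. The arms share only numbers 1 and 3, whose deviations correlated at 0.449 and 0.286, against -0.293 to 0.202 for the other 7 pairs. With only 2 shared numbers, whether they pair the samples was not settled. Rises made up 40.7 percent of calls, 29.8 percent without BSA replicate 1 and 51.3 percent in the fit of 6 libraries. Of 237 genes named here or by the rule (232 by DESeq2 and 231 in the fit of 6 libraries, where the others have no value), none turned its direction under these settings. That was largely fixed in advance and is no support for the calls. Nearly all called genes had separate libraries, and omitting a 0 h or 72 h library hardly moves the 36 h difference. The cause of the differing counts was not tested, except that the fit of 6 libraries has fewer samples.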
